A study of Mus musculus with 3 samples.

Results

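The genes followed here belong to the interleukin-1 (IL-1) family: the cytokines Il1a, Il1b, Il18 and Il33, the antagonists Il1rn and Il18bp, and the receptor genes Il1r1, Il1r2, Il1rap and Il18r1. They were taken by gene symbol and make up 10 of the 55536 annotated genes and all of them among the 22028 protein-coding genes. The series held 1 group of 3 libraries of ribosome-depleted total RNA from the chromatin fraction of primary macrophages, grown from bone marrow of C57BL/6J mice. All 3 libraries came from cells given Lipid A, the part of lipopolysaccharide that Toll-like receptor 4 recognises, at 100 ng/ml for 12 h. The cells were then washed free of it for 12 h and given 100 ng/ml again for 40 min. No untreated, singly treated or cytoplasmic library was analysed here, so every value below is a level in the restimulated state and not a response. The labels number the libraries as biological replicates but give the same donor entry for all 3, and neither sex nor age was collected. p-values between libraries therefore measure the spread of these 3 samples only. The libraries were made from 1 µg (replicate 1), 250 ng (replicate 2) and 500 ng (replicate 3) of RNA.

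IL-1 alpha and IL-1 beta signal through the same receptor, in which IL1R1 binds the ligand and IL1RAP joins it to recruit the adaptor MYD88. The IL-1 receptor antagonist, the product of Il1rn, occupies IL1R1 without recruiting IL1RAP, and IL1R2 is a decoy that binds IL-1 without signalling. IL-18 acts through IL18R1 with its own accessory chain and is held in check by the secreted IL-18 binding protein, and IL-33 is a nuclear cytokine best known from stromal and epithelial cells. Macrophages make IL-1 beta and IL-18 as precursors that caspase-1 cleaves, and Il1b is among the most strongly lipopolysaccharide-induced genes of these cells. Chromatin-bound RNA holds transcripts still being made or not yet released, so a level in this fraction is closer to ongoing transcription than a level in whole cells is.

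The start regions of the 2 most abundant members and of 2 starts of Il1rn are shown because these loci carried the abundant and the most variable transcripts described below. Each is the RefSeq window of 300 bases on GRCm38.p6, from 250 bases before the annotated start to 50 after it, read 5′ to 3′ on the gene's strand. All 10 members had at least 1 window in that table, 16 windows in all. Capitals mark matches to the motif letters searched on both strands.
Il1a, chr2:129309923-129310222, minus strand: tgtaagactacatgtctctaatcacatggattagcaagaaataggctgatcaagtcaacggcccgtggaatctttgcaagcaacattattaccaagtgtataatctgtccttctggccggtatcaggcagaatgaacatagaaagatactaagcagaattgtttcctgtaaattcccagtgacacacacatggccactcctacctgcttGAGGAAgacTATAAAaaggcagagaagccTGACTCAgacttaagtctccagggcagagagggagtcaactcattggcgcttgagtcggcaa
Il1b, chr2:129371090-129371389, minus strand: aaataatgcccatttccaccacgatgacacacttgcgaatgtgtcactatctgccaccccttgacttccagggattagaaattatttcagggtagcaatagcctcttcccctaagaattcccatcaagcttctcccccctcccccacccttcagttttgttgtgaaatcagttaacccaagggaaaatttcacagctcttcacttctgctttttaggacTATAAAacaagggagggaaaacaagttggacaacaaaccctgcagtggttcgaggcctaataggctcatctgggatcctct
Il1rn upstream start, chr2:24336610-24336909, plus strand: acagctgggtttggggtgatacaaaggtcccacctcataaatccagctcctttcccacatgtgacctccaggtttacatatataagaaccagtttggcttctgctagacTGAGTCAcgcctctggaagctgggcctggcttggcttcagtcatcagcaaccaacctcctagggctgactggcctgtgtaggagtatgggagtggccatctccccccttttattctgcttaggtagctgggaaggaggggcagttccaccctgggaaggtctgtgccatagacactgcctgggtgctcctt
Il1rn downstream start, chr2:24345041-24345340, plus strand: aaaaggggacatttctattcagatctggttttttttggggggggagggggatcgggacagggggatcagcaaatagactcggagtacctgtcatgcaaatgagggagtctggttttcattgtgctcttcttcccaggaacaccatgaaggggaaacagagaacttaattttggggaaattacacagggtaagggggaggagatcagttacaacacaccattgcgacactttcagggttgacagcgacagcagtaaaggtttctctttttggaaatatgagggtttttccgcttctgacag
Both cytokine windows hold the TATA box letters TATAAA on the gene's strand, beginning 32 bases before the start in Il1a (position -32) and 31 before it in Il1b (position -31). The same letters are found on either strand in 13.6% of the 32851 windows of that length. Il1a also holds the AP-1 letters TGANTCA at position -12 and the PU.1 letters GAGGAA at position -41, which 7.81% and 28.3% of windows hold. The upstream Il1rn window holds the AP-1 letters at position -141, and the downstream window shown holds none of the motifs. RefSeq lists another Il1rn start 80 bases beyond that one, whose largely overlapping window holds TATAAA on the opposite strand at position 15 and is not shown. The NF-kB motif (4.51% of windows), C/EBP (TTGCNNAA, 10.8%), CRE (TGACGTCA, 1.79%) and the interferon response element (3.44%) were searched as well and matched none of the 4 windows. A match here is a description of letters, not of a bound site.

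The values below come from the authors' gene tables unless the second quantification is named. TPM, a share of all transcripts in the library, is corrected for transcript length and was used to compare genes within a library. CPM, a gene's share of the library's counts, was scaled by the trimmed mean of M-values (TMM-scaled CPM) and was used to compare libraries, because TPM shifted between them. The median deviation of the 10938 detected protein-coding genes with a value above 0 in every library from their own mean was -0.23, 0.22 and 0.02 on the log2 TPM scale in replicates 1, 2 and 3, and -0.00, 0.02 and -0.01 on the log2 TMM-scaled CPM scale. Annotated genes received 13802716, 17187524 and 16502809 estimated counts, and a gene with 0 counts could hold up to 3 counts, or 0.217, 0.175 and 0.182 CPM (counting error only). All 8 macrophage markers were detected, with a summed level of 959 to 1102 TPM, led by Adgre1 (368 TPM), Lyz2 (203 TPM) and Csf1r (179.5 TPM). None of 8 neutrophil markers was detected (summed 0.18 to 1.19 TPM, Ly6g and Ltf at 0 in all libraries) and none of 8 T and natural killer cell markers (0 to 0.10 TPM, with Cd3e, Cd3d and Cd3g at 0). Of the fibroblast markers 3 of 8 were detected (0.35 to 1.79 TPM, the collagen genes Col3a1, Col1a1 and Col1a2, with Pdgfra at 0), of the mast cell and basophil markers 1 of 8 (0.33 to 0.76 TPM, Kit, with Fcer1a at 0) and of the endothelial markers 2 of 8 (4.87 to 9.86 TPM, Kdr and Pecam1, with none at 0 in all libraries). In the second quantification, described below, the counts were 8, 1, 4, 6, 2 and 3 of 8 in the same order. Cd3d averaged 15.6 TPM and the fibroblast marker Thy1 12.5 TPM there, against 0 and 0.0967 TPM in the gene tables.

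Detection was set at a mean count of 10 or more. Of the 10 members 7 reached it, against 49.7% of all protein-coding genes. The cytokines and antagonists Il1b, Il1a, Il18bp, Il18 and Il1rn stood at 24.4 TPM or above, and the receptor chains Il1rap and Il1r1 at 1.32 TPM and 0.167 TPM. Il1r2 stayed below the count minimum, and Il33 and Il18r1 were listed at 0 in every library. In bulk RNA a gene read in few cells and one read weakly in all cells cannot be told apart.

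Il1b, the precursor of secreted IL-1 beta (ENSMUSG00000027398.13, mm10 chr2:129364570-129371139, minus strand), was the highest member. Its level was 333.12 TPM in replicate 1, 240.87 TPM in replicate 2 and 414.55 TPM in replicate 3, which placed its mean at rank 109 of the protein-coding genes. Replicate 3 was highest and replicate 2 lowest. Il1a, which encodes an IL-1 that is active as the precursor and works inside as well as outside the cell (ENSMUSG00000027399.1, chr2:129299610-129309972, minus strand), followed at 141.33, 102.96 and 247.48 TPM in replicates 1, 2 and 3. Its mean was 163.9 TPM ± 74.9 (SD, n = 3), rank 322. The ranges of the 2 genes overlapped between libraries, since Il1a in replicate 3 exceeded Il1b in replicate 2, but within each of the 3 libraries Il1b was higher. On the estimated count scale, which is not corrected for length, the order was the other way round, with means of 3314 counts for Il1b and 3900.0 for Il1a. The only coding transcript of Il1b, Il1b-201, stood at 137.64, 99.15 and 200.52 TPM in replicates 1, 2 and 3, below Il1a in each library. The higher gene level of Il1b in TPM therefore depended on its transcripts without a coding sequence, described below.

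Il18, the precursor of the interferon-gamma-inducing cytokine IL-18 (ENSMUSG00000039217.13, chr9:50554827-50581840, plus strand), stood at 32.69, 23.82 and 28.04 TPM. This mean of 28.2 TPM ± 4.44 (SD, n = 3; rank 2271) was below Il1a without overlap of the ranges. It rested on few reads, 245, 162 and 179 counts, because the effective length used for the gene was 538, 475 and 478 bases. Il33 (ENSMUSG00000024810.16, chr19:29925114-29960718, plus strand) had 0 counts in all 3 libraries and also in the second quantification, so it was not detectable at this depth.

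Among the antagonists, Il18bp (ENSMUSG00000070427.4, chr7:102014885-102018690, minus strand) was at 55.87, 65.67 and 61.27 TPM, a mean of 60.9 TPM ± 4.91 (SD, n = 3; rank 1063). No library overlapped with the range of Il1a above it or of Il18 below it. Il1rn, the gene of the IL-1 receptor antagonist (ENSMUSG00000026981.15, chr2:24336853-24351494, plus strand), was at 24.8, 11.16 and 37.12 TPM, a mean of 24.4 TPM ± 13.0 (SD, n = 3; rank 2559). Its range enclosed that of Il18, and Il18 was the higher of the pair in 2 of 3 libraries.

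The receptor side was low. Il1rap, the shared accessory chain (ENSMUSG00000022514.14, chr16:26581704-26730117, plus strand), was at 1.02, 1.23 and 1.72 TPM on 42.4, 55 and 62 counts. Il1r1, the signalling receptor (ENSMUSG00000026072.12, chr1:40225080-40317257, plus strand), had 10, 5 and 20 counts, or 0.15, 0.08 and 0.27 TPM. Il1r2, the decoy (ENSMUSG00000026073.13, chr1:40074079-40125231, plus strand), had 5, 1 and 5 counts, or 0.85, 0.09 and 0.61 TPM. The higher TPM of Il1r2 on fewer counts went with effective lengths of 422 to 788 bases against 4566 to 5566 for Il1r1, and with so few counts no ratio of decoy to receptor is given. Il1r1 and Il1r2 overlapped in range, while every library of Il1rap lay above both in the gene tables. The second quantification, described below, reversed Il1rap and Il1r2. Il1r2 was at 1.74, 1.78 and 2.00 TPM there and Il1rap at 1.61, 1.46 and 1.99 TPM, so their order is not settled. Il18r1, the ligand-binding chain of the IL-18 receptor (ENSMUSG00000026070.15, chr1:40465552-40500854, plus strand), was listed at 0, as were 31.6% of protein-coding genes. The interval deposited with its value, whose level the headers do not state, ran from 0.0529 to 0.361, 0.0508 to 0.360 and 0.0566 to 0.383 TPM. That of Il33 ran from 0.116 to 2.02, 0.138 to 2.71 and 0.142 to 2.72 TPM. Neither interval held the listed 0, and those of Il1b and Il1a lay below the listed TPM in every library. The intervals are therefore not read as limits on the listed values.

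**Figure D1:**
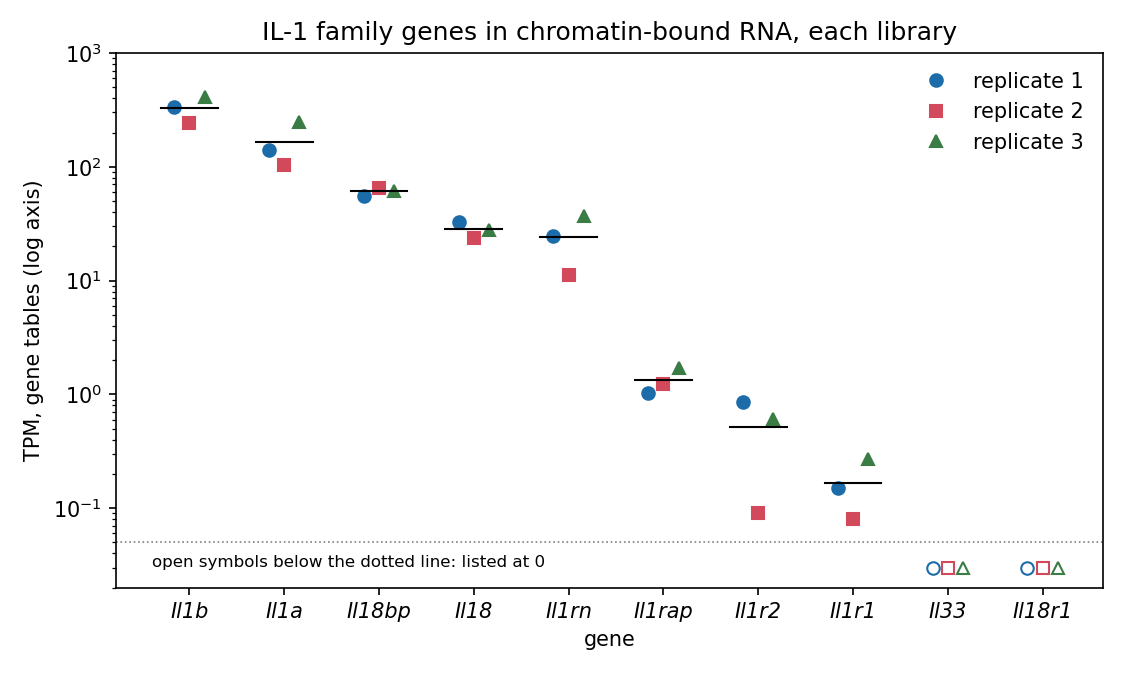
Level of each of the 10 genes in TPM (log axis), 1 symbol per library and a line at the mean of the 3 libraries; open symbols mark genes listed at 0. The 5 highest genes lie between 11.16 and 414.55 TPM in every library, Il1rap lies between 1.02 and 1.72 TPM, and Il33 and Il18r1 are at 0.

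Ratios within a library compare each antagonist with the cytokine it opposes. Il1rn stood at 7.44%, 4.63% and 8.95% of the Il1b level in replicates 1, 2 and 3, a mean log2 ratio of -3.89 ± 0.49 (SD, n = 3). Against Il1a it stood at 17.5%, 10.8% and 15.0%, a mean log2 ratio of -2.82 ± 0.35 (SD, n = 3). So the RNA of the receptor antagonist was below that of either agonist in all 3 libraries. The IL-18 pair ran the other way, with Il18bp at 1.71, 2.76 and 2.19 times the Il18 level (mean log2 ratio 1.12 ± 0.34, SD, n = 3). Il1a stood at 42.4%, 42.7% and 59.7% of Il1b with all transcripts of both genes counted (mean log2 ratio -1.07 ± 0.28, SD, n = 3). All 4 signs were the same in every library and in both quantifications. With 3 libraries a two-sided exact test on the sign cannot go below p = 0.25, so none was used.

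**Figure D2:**
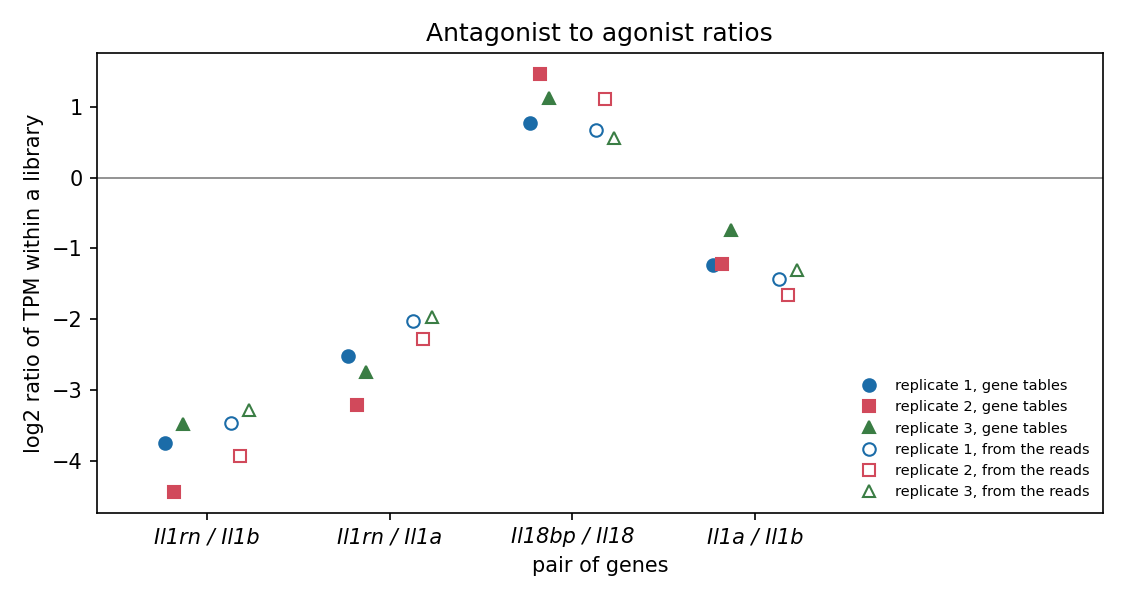
Log2 ratio of TPM for 4 pairs of genes, 1 symbol per library, filled for the gene tables and open for the second quantification; 0 marks equal levels. Il18bp to Il18 lies above 0 in all libraries and the other 3 ratios lie below it.

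The libraries differed in the inflammatory members by more than counting. In a chi-square test of the 3 counts of each gene against TMM-scaled library sizes, with Benjamini-Hochberg adjustment over all 14330 genes tested, 54.9% of genes passed an adjusted p of 0.05. Of the 7 members tested, 6 passed, against 57.7% of protein-coding genes. That share rises with depth: it was 33.5% of protein-coding genes at 10 to 100 counts, 63.3% at 100 to 1000 and 90.1% at 1000 to 10000. Of the members that passed, Il1b, Il1a and Il18bp lie in the deepest of these classes, where most genes pass.

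Il1rn varied most among the members with over 100 counts. Its TMM-scaled CPM was 27.8, 10.4 and 38.8 in replicates 1, 2 and 3, a 3.73-fold range (chi-square adjusted p = 8.03e-61). Its edgeR biological coefficient of variation was 0.347. This coefficient estimates the spread beyond counting error as a share of the level and is drawn towards the trend over all genes. It is therefore not the gene's own spread: the observed CV of TMM-scaled CPM was 55.7% for Il1rn. For the steadier Il18bp the CV was 7.76%, below its coefficient of 0.170. The median of 10952 detected protein-coding genes was 0.209, and 4.14% of them reached the value of Il1rn or more. Il1a followed with 255, 136 and 367 CPM, a 2.69-fold range and a coefficient of 0.288; its chi-square statistic of 1839 gave a p too small to be written as a number. Il1b had 249.8, 129 and 268 CPM, a 2.08-fold range (chi-square adjusted p = 9.05e-202) and a coefficient of 0.252. These 3 genes were highest in replicate 3 and lowest in replicate 2. Without replicate 2 the ranges were 1.39-fold for Il1rn, 1.44-fold for Il1a and 1.07-fold for Il1b, so replicate 2 set most of the spread of Il1b. Replicate 2 also had the smallest RNA input, and whether input plays a part cannot be told apart from the library itself.

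Il18 had 17.9, 8.77 and 11.6 CPM, a 2.04-fold range with replicate 1 highest (chi-square adjusted p = 1.12e-11, coefficient 0.25). Without replicate 1 its range was 1.32-fold. Its coefficient of variation was 36.7% in TMM-scaled CPM and 15.7% in TPM, so the spread of this gene depends on the scale. Il18bp was the steadiest member at 100.6, 87.4 and 89.2 CPM, a 1.15-fold range (chi-square adjusted p = 0.000715, coefficient 0.170). It lost the call without replicate 1 (adjusted p = 0.823), and its replicate 2 was the lowest in CPM but the highest in TPM. Il1rap had 3.10, 2.98 and 4.004 CPM and did not pass (chi-square adjusted p = 0.287, coefficient 0.231). Il1r1 passed on its 10, 5 and 20 counts (0.731, 0.271 and 1.29 CPM, a 4.77-fold range, chi-square adjusted p = 0.00607, coefficient 0.420) and lost the call without replicate 2 (adjusted p = 0.282). For 5 of the 7 detected members (Il1b, Il1a, Il1rn, Il1rap and Il1r1) replicate 3 was highest and replicate 2 lowest in TMM-scaled CPM, an order that 18.2% of detected protein-coding genes had. Il1r1 did not keep this order in the second quantification, described below. It had 21, 88.0 and 115 counts there (0.212, 1.01 and 0.930 TPM), with replicate 1 lowest.

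**Figure D3:**
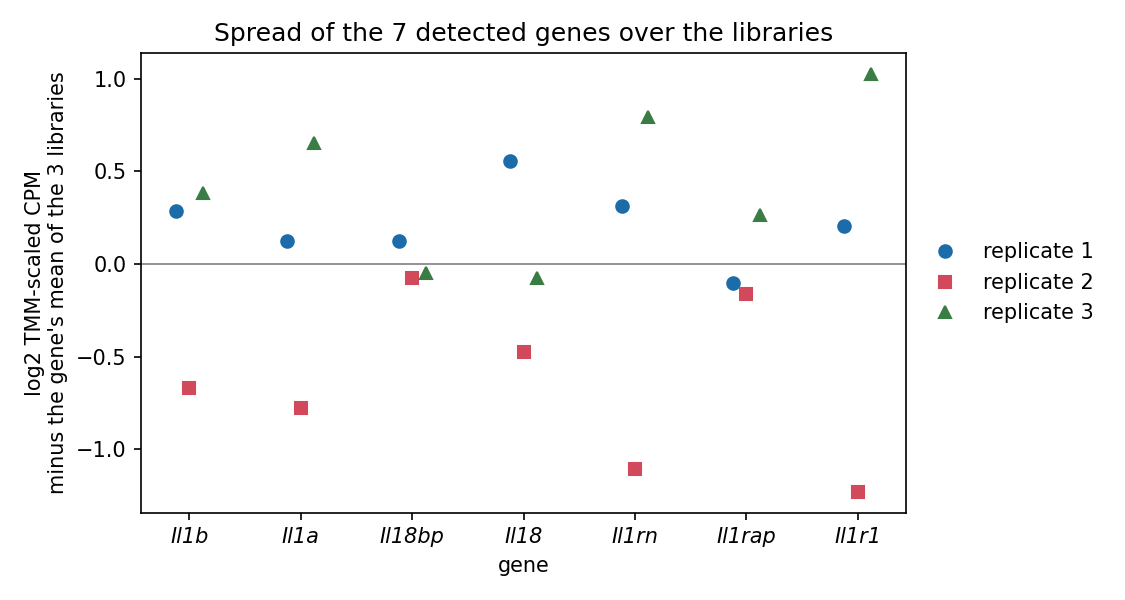
Log2 TMM-scaled CPM of each detected gene in each library minus the gene's mean over the 3 libraries. Replicate 2 lies 0.67 below the mean for Il1b, 0.78 below for Il1a and 1.11 below for Il1rn, while the 3 libraries of Il18bp stay within 0.13 of it.

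The transcript tables divide each gene's level among its annotated transcripts. Reads that fall in an intron of a listed retained-intron transcript and reads of RNA not yet spliced cannot be told apart in these tables. Il1b has 1 coding transcript, Il1b-201, of 269 codons, and 2 without a coding sequence. Il1b-201 held 41.3%, 41.2% and 48.4% of the gene's TPM. Il1b-203, which shares the start of Il1b-201 and keeps its second intron of 532 bases (chr2:129369752-129370283), held 49.8%, 56.0% and 48.3%. The short 3′ transcript Il1b-202 held 8.83%, 2.84% and 3.31%. Transcripts without a coding sequence thus held 56.4% ± 4.12 (SD, n = 3) of the Il1b level in TPM. TPM corrects for length, and Il1b-201 has 1356 bases against 689 for Il1b-203 and 379 for Il1b-202. On the count scale Il1b-201 was the largest, with 2215, 1548 and 2954 of the gene's 3419, 2379 and 4145 counts. The median over 8530 genes was 43.4%, and 31.4% of those genes were at or above the Il1b share. In the second quantification Il1b-202 was the largest of the 3 in TPM, at 40.8%, 38.5% and 38.9%, with 28.2% in Il1b-201 and 32.4% in Il1b-203. In counts Il1b-201 was the largest there too, with 3457, 2968 and 5091 of 5923, 5220 and 8428. The share without a coding sequence was 71.8% ± 1.25 (SD, n = 3) there, against a median of 52.0% over genes.

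The annotated transcripts of Il1rn begin in 2 regions, an upstream one that opens the intracellular antagonist transcript Il1rn-204 (159 codons) and a downstream one that opens the secreted form Il1rn-201 (178 codons). Transcripts of the downstream start held 82.7%, 75.4% and 81.7% of the gene's TPM, and those of the upstream start the remaining 17.3%, 24.6% and 18.3%. Most of the downstream share lay in Il1rn-206, a 2-exon transcript with no coding sequence and with 412 of its 636 bases outside the exons of Il1rn-201, at 55.6%, 47.5% and 44.6%. On the count scale, not corrected for length, Il1rn-206 had 83.6, 28.1 and 84.8 of the gene's 381, 192 and 600 counts. Il1rn-206 (chr2:24345348-24346354) also lies within the span of the upstream-start transcript Il1rn-204 (chr2:24336853-24351494). Reads of RNA not yet spliced from either start cannot be told apart there, so these shares are no measure of start use. Transcripts without a coding sequence held 50.2% ± 5.62 (SD, n = 3) of the Il1rn level, against a median of 43.4% over genes, and 39.6% of genes were at or above the Il1rn share. That share was 47.6% in the second quantification, below the median of 52.0% there. Among coding transcripts alone the secreted start held 30.6% ± 5.53 and the intracellular start 19.1% ± 3.43 of the gene's TPM (SD, n = 3). In the second quantification the coding order was the other way round, with 24.8% ± 2.45 and 27.6% ± 3.89 (SD, n = 3), because 19.8% lay in Il1rn-205, a 321-base transcript of the upstream start that the gene tables' layout put at 0.

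Il18 shows how far the naming of a transcript depended on the quantification. Il18-201 and Il18-202 have the same length of 702 bases and the same number of codons (192) and differ in a single 12-base exon, in capitals below within 14 bases on either side.
Il18-201, exon at chr9:50577537-50577548: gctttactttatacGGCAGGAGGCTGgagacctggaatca
Il18-202, exon at chr9:50576694-50576705: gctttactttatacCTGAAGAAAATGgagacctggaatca
In the gene tables' layout Il18-202 held 79.4%, 78.2% and 83.1% of the Il18 level and Il18-201 held 0% in every library. The second quantification gave Il18-202 0% in every library and Il18-201 32.6%, 36.02% and 38.7%, with another 36.7% in Il18-204 and 27.5% in Il18-203, which begin further upstream. The gene's total differed far less, 28.2 TPM against 34.6 TPM, so which of the alternative exons was used is not settled by these tables.

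The level of Il18bp was shared by Il18bp-203 (193 codons; 62.5%, 61.3% and 64.5%) and Il18bp-202 (194 codons; 37.5%, 38.7% and 34.8%). Il18bp-202 has 1432 bases outside the exons of Il18bp-203 and keeps 3 of its introns. The second quantification kept this order at 51.7% and 34.1% and placed 14.2% in the incomplete Il18bp-204. Il1rap was shared by Il1rap-206 (360 codons; 60.8%, 51.2% and 57.6%) and the full-length Il1rap-201 (570 codons; 39.2%, 45.5% and 29.7%), on 18 to 34 counts each. The second quantification reversed them, to 40.2% and 57.4%. Il1a has 1 annotated transcript, of 270 codons. The counts of Il1r1 and Il1r2 were too few to divide: Il1r1-202 took all reads in 2 libraries and Il1r1-201 all reads in the third. The second quantification put 100%, 51.9% and 100% in Il1r1-201 in replicates 1, 2 and 3. Il1r1-203 held 38.3% there in replicate 2 only, on 2.59 counts. The reads of Il1r2, at most 5 in a library, were spread over Il1r2-202, Il1r2-203 and Il1r2-204.

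**Figure D4:**
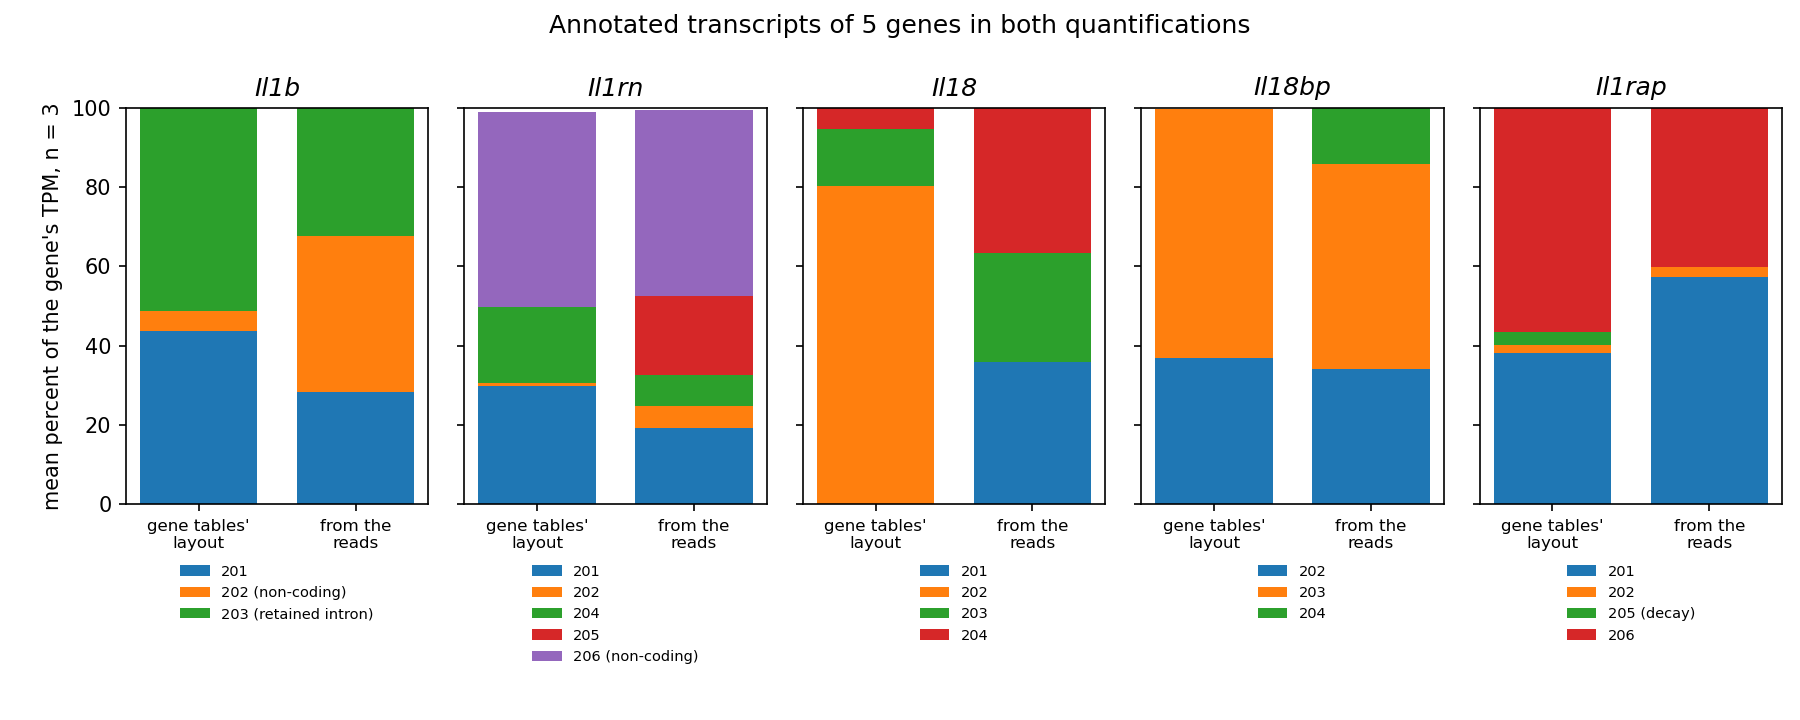
Mean share of each annotated transcript in the gene's TPM (percent, n = 3 libraries) for 5 genes, with the gene tables' layout on the left of each panel and the second quantification on the right; transcripts below 1% in both are not drawn. The retained-intron transcript of Il1b holds 51.4% on the left and 32.4% on the right, and Il18 changes from Il18-202 to Il18-201, Il18-203 and Il18-204.

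The second quantification, made from the reads without the genome alignments, gave the detected members 0.968 to 4.31 times the TPM of the gene tables. Over detected protein-coding genes the median of that ratio was 1.29, with quartiles of 1.02 and 1.80. Il1rn lay above the upper quartile at 2.07 (50.3 TPM ± 23.4, SD, n = 3), as did Il1r1 at 4.31 (0.718 TPM ± 0.440, SD, n = 3). The ratio was 1.69 for Il1b, 1.27 for Il1a and Il1rap, 1.23 for Il18 and 0.968 for Il18bp. With Il1rn at 50.3 TPM and Il18 at 34.6 TPM the order of this pair was reversed. Of the 10 members 9, all but Il33, reached a mean count of 10 there, against 66.9% of protein-coding genes. Il1r2 reached it with 13, 16 and 19 counts.

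Il18r1 differed most, with 446, 509.6 and 783 estimated counts (7.16, 5.95 and 9.98 TPM) against 0 in the gene tables. These counts lay in 2 of its 6 transcripts, Il18r1-202 (415, 464 and 735 counts) and Il18r1-205 (31.1, 46.0 and 48.2 counts). Il18r1-202 shares 67 of its 4128 words of 31 bases with transcripts of 2887 other genes, and Il18r1-205 shares 17 of 1622 with 1407 other genes. The other 4 transcripts had 0 counts in both quantifications, both Il18r1-203 and Il18r1-204, which share 15 words each with 1399 other genes, and Il18r1-201 and Il18r1-206, which share 2 words each. Il1rn-201 and Il1rn-204 share 32 words with 2723 other genes, and Il1b, Il18 and Il33 share none. The part of shared sequence in the Il18r1 counts was not tested, and 642 of the 6966 protein-coding genes at 0 in all gene tables averaged 100 counts or more in the second quantification.

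**Figure D5:**
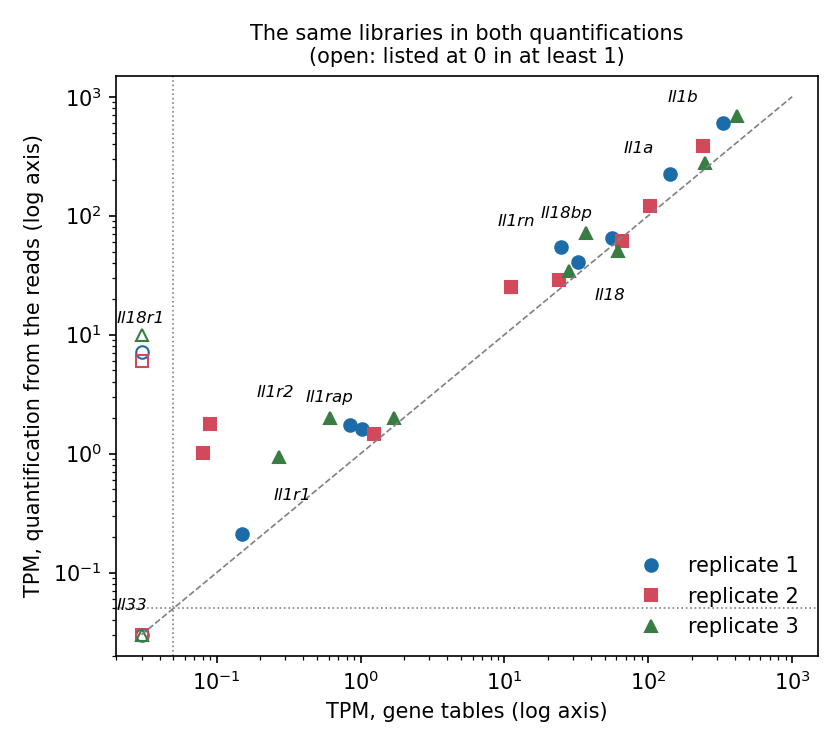
TPM of each gene in each library in the gene tables (horizontal, log axis) and in the second quantification (vertical, log axis); the dashed line marks equality and open symbols a value listed at 0. Il1b, Il1a, Il18, Il1rn, Il1rap, Il1r2 and Il1r1 lie above the line in every library and Il18bp lies around it. Il33 lies at 0 on both axes, and Il18r1 lies at 0 on one axis and at 5.95 to 9.98 TPM on the other.

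Several members overlap other annotated genes, and the strand use of the counting was not given in the sources used here, so reads of genes on opposite strands cannot be told apart where they overlap. Gm14023, a non-coding gene on the plus strand across Il1a, was at 169.42, 130.93 and 259.41 TPM, as high as Il1a itself and with the same order of libraries. Of its 1781 exonic bases 222 lie in exons and 1452, or 81.5%, in introns of Il1a, and Il1a shares 195 of its 1944 words of 31 bases with it. The antisense gene Il1bos at the Il1b start was far lower, at 1.04, 0.48 and 1.60 TPM. Numa1, whose 3′ end meets that of Il18bp over 80 bases, was at 56.9, 65.5 and 65.4 TPM, and 50 words of Il18bp-203 occur in it. Tex12 (10.3, 9.55 and 10.4 TPM) and Bco2 (2.37, 1.74 and 2.09 TPM) lie across from Il18, and Gm20319 across from Il1rap and Gm16894 across from Il1r2 had fewer than 4 counts in every library. On the same strand, Gm37347 lies inside Il1r2 with 8, 7 and 12 counts and Gm38070 inside Il1r1 with 16.0, 21 and 16 counts, so each outnumbered its host gene in mean count. Both are unspecified gene models awaiting experimental evidence.

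Outside the members, the other ligands of the family were near absent in the gene tables, with 0 of 5 detected and Il1f5, Il1f6 and Il1f8 at 0. In the second quantification 1 of the 5 reached the minimum, Il1f9, at 5.86 TPM against 0.0167 TPM in the gene tables. Of 6 other receptors of the family 1 was detected, Il1rl2, the IL-36 receptor chain, at 0.87, 0.94 and 1.00 TPM, and 5 of the 6 reached the minimum in the second quantification. Il18rap, the accessory chain of the IL-18 receptor, was at 0.217 TPM ± 0.031 (SD, n = 3) in the gene tables and at 7.70 TPM in the second quantification, much like Il18r1. The signalling genes below the receptors were all detected, 15 of 15, beside 49.7% of all protein-coding genes. Of these 15 genes 13 passed the chi-square test between libraries. Their means all lay between 100 and 10000 counts, where 63.3% and 90.1% of protein-coding genes pass in the lower and the upper class, so the count is near the background. The highest were Irak2, a kinase of the MYD88 complex (189.29, 142.18 and 215.13 TPM), and the IkB kinase genes Ikbkb (85.47, 93.79 and 117.84 TPM) and Chuk (71.94, 97.59 and 87.02 TPM). All 14 genes of cytokine maturation and release were detected, beside the same 49.7%, and 9 passed the test, also near the 57.7% of all protein-coding genes. Nlrp3, the inflammasome sensor, was at 338.74, 256.50 and 495.10 TPM, Casp4, the caspase-11 gene that senses intracellular lipopolysaccharide, at 257.63, 181.21 and 342.97 TPM, and Gsdmd, the pore former cut by these caspases, at 152.14, 199.34 and 199.26 TPM. In TMM-scaled CPM, Nlrp3 and Casp4 shared with Il1b, Il1a and Il1rn the order of replicate 3 highest and replicate 2 lowest. That order was seen in 4 of the 14 maturation genes, 3 of the 15 signalling genes and 0 of the 8 macrophage markers, beside the 18.2% of detected protein-coding genes.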

How the data were processed

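The deposited files cover 3 libraries of 1 group. Per the file headers and the notes deposited with them, the authors aligned reads to mm10 with GENCODE M21 and made gene and transcript tables of expected counts (estimated counts, need not be whole), TPM and each transcript's percent of its gene, with an interval of TPM. A second transcript table of estimated counts and TPM was made by the authors from the reads and an index, per the notes deposited with the files. Which programs and strand setting were used, and the level of the interval, is not given in the sources used here. Entries that name no annotated gene (0.279% to 1.13% of counts) were left out.

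Counts were rounded for the tests. A gene was detected at a mean of at least 10 counts. Variation between libraries was tested by a chi-square test with 2 degrees of freedom on TMM-scaled library sizes (edgeR 4.0.16 in R 4.3.3). It was Benjamini-Hochberg adjusted over all genes with that mean, at an adjusted p of 0.05. The test was checked on counts simulated with counting error only, some genes being raised in a library. That check does not cover libraries with further spread. The biological coefficient of variation is edgeR's tagwise value with an intercept only, which is drawn towards the trend over all genes. The second table was summed to genes. Motif searches, shared words and tables were done in Python 3.11.15. Values are in TPM except where CPM is named, and depth was 13802716 to 17187524 counts in a library.

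All 10 members are named, with their transcripts of at least 10% in either table, overlapping genes, and the 3 highest detected genes of each pathway and marker list, while undetected genes are counted with up to 3 named. Cd3d, Thy1 and Il1f9 are named outside this rule, after their values were seen. The members and lists were chosen with earlier results of these data known. Alternatives were other detection minimums, other library sizes (DESeq2 1.42.0, total counts), no count filter, the second quantification, TPM over protein-coding genes, a pseudocount of 1 TPM and leaving out each library.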

Additional observations from a re-analysis of the deposited data

Results flagged for a closer look

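Il18r1 stood out because a table outside the main measurement held signal where the gene tables held none. Its mean was 579.6 estimated counts in the second quantification and 0 in every gene table. It ranked 75 by that mean among the 6966 protein-coding genes at 0 in all gene tables. Groups of 3 libraries are too small for a check of single outlying libraries.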

How the results depend on the processing

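The number of detected members was 7, and 6 to 9 under the alternatives: 6 with a minimum of 1 TPM, 9 in the second quantification, and 6 to 7 with a library left out. Members varying beyond counting error numbered 6, and 8 in the second quantification, where Il1rap passed as well (adjusted p = 0.0176); with a library left out they numbered 5 in each case. Over all genes, 7867 of 14330 passed (54.9%), 13025 of 23649 in the second quantification (55.1%), and 3912 to 6325 with a library left out, the lowest without replicate 2 (27.9% of those tested). In the second quantification the mean log2 ratio was -2.09 for Il1rn to Il1a, 0.78 for Il18bp to Il18 and -1.46 for Il1a to Il1b; the cause was not tested. No ratio of gene levels changed sign under any alternative. Coding transcripts alone were not among the alternatives, and Il1b-201 by itself lay below Il1a in each library, as given above. Protein-coding genes held 27.4%, 30.7% and 31.9% of TPM in the 3 libraries, so levels over protein-coding genes alone were higher throughout (Il1b 1098 TPM, Il1rn 81.0 TPM). Transcript shares moved by more than their SD in 17 of 19 comparisons with the second quantification. Depth limits Il1r1, Il1r2 and Il1rap, whose means were 11.7, 3.67 and 53.1 counts. No paired analysis was possible because the study has 1 group.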
